A study of Mus musculus with 11 samples.

Results

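CD45RBhi and CD45RBlo virus-specific memory CD8 T cells were compared in 8 of the series' 11 RNA sequencing libraries. These are 4 CD45RBhi and 4 CD45RBlo libraries, each numbered 1 to 4, and the comparison was made between libraries that carry the same number. All 8 came from spleens of C57BL/6 mice infected in the peritoneum with 200000 pfu of LCMV Armstrong, a strain of lymphocytic choriomeningitis virus that causes an acute infection. Cells that bound a tetramer with the viral peptide NP396 were taken in week 6 after infection (days 42 to 45). They were sorted by flow cytometry to over 99% purity and parted by CD45RB. The other 3 libraries are naive CD8 T cells and were not used. The infection, the time and the tetramer are therefore shared by both groups, and the only difference that the labels name is the level of CD45RB on the cell surface. The labels give neither the sex or age of the mice, nor the number of mice per library, nor what a shared number stands for. They do not say that the numbers are separate animals, so a p-value here measures variation among these libraries, some of which may be technical.

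CD45, encoded by Ptprc, is a transmembrane tyrosine phosphatase that acts on Src-family kinases of the antigen receptor pathway. Its extracellular part is built from alternatively spliced exons, and CD45RB is detected when exon B is kept. Naive T cells carry much CD45RB, and activation favours isoforms without the variable exons. Memory CD8 T cells range from central memory cells, which recirculate through lymph nodes and renew themselves, to effector-like cells, which keep cytotoxic proteins and receptors for blood and tissue.

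The tables hold raw read counts per gene. Library totals ran from 18.5 to 23.2 M counts, and a gene with 0 counts in a library could still be present at up to 3 counts, or 0.128 to 0.166 counts per M counts (CPM), for counting error only. Levels are given as CPM, listed for replicates 1, 2, 3 and 4 in that order, and every log2 fold change is CD45RBhi minus CD45RBlo ± SE. Of 17 T cell identity and sort genes 1, Cd44, was called (0.21 ± 0.0539, adjusted p = 0.0436, and 0.148, 0.183 and 0.137 without replicates 1, 3 and 4). Cd8a was at 907, 1031, 918 and 987 CPM in CD45RBhi and at 954, 1037, 865 and 962 in CD45RBlo libraries. Cd4 had 0 to 6 counts per library. Of the sex-linked genes, the Y-linked Ddx3y had 1469 to 2006 counts per library and Xist 0 to 5, as in male cells. The CD45RBhi libraries had 2905 ± 208 CPM of Ptprc and the CD45RBlo libraries 2896 ± 172 (SD, n = 4 each), a log2 fold change of 0.00 ± 0.0478 (adjusted p = 0.979). A count per gene does not show which exons were kept, so it cannot check the sorted isoform. Hnrnpll, a splicing factor known to repress the variable exons of CD45, was at 66.9 ± 4.36 and 73.1 ± 7.29 CPM, lower in CD45RBhi in 4 of 4 pairs, and did not pass the test (-0.13 ± 0.0659, adjusted p = 0.291).

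Across pairs, CD45RBhi memory cells had more mRNA of lymphoid homing and cytokine receptors (Ccr7, Gpr183, Il7r), of the transcription factors Satb1, Tcf7, Lef1 and Myc, and of most ribosomal proteins. CD45RBlo cells had more mRNA of effector genes (Gzma, Klrg1, Cx3cr1, Zeb2, Prdm1), of inhibitory receptors (Pdcd1, Lag3) and of less abundant genes such as Timp2, Matk and Jup. Of 12637 genes tested, 707 (5.59%) had an adjusted p under 0.05 and are called changed here, 318 higher (2.52%) and 389 lower (3.08%) in CD45RBhi. Most differences were small: 243 of the higher and 275 of the lower genes changed by under 1.5-fold, and 29 and 44 changed at least 2-fold. The lower genes were less abundant, with a median of 45.5 CPM against 92.7 for the higher ones. In 702 of the 707 genes all 4 pairs moved the same way, as they did in 28.9% of all genes tested. The calls were made from these same pairs, so the higher share among called genes follows in part from the selection.

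The groups overlapped for most called genes. All 4 CD45RBhi libraries lay above all 4 CD45RBlo libraries for 114 of the 318 higher genes, and below them for 115 of the 389 lower ones. Over all genes tested such separation was found for 354 genes (2.8%) with CD45RBhi above and for 296 (2.34%) with CD45RBhi below. When the number is not used as a block, 4 genes passed: Satb1 and Il7r higher, and Jup and Timp2 lower. Every other call given here rests on the pairs. With offsets for GC content and exon length, 448 genes were higher and 266 lower, 513 of them shared with the 707, so which direction holds more genes depends on that correction. The lower genes had a median GC content of 52.9% and exon length of 5585 bases, against 49.4% and 2899 bases for the higher ones. Their part in the result was not tested further. In bulk RNA, fewer cells of a type and less RNA per cell cannot be told apart, and this holds for each gene below.

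**Figure D1:**
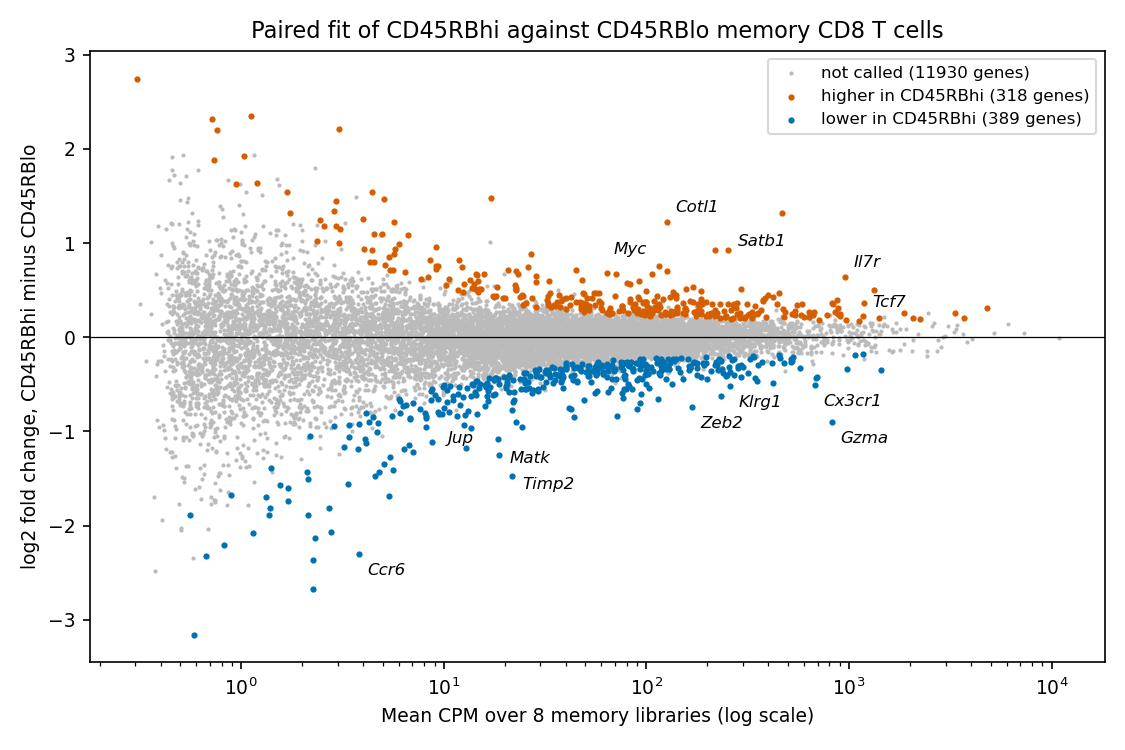
Each point is 1 of 12637 tested genes, with its mean CPM over the 8 memory libraries on a log axis and its log2 fold change (CD45RBhi minus CD45RBlo) from the paired fit. Orange points are the 318 genes called higher and blue points the 389 called lower in CD45RBhi. Called genes lie closer to 0 at high CPM than at low CPM.

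Satb1, a chromatin organizer of T cells, had the lowest p of all genes. It was at 353, 335, 305 and 325 CPM in CD45RBhi and at 193, 163, 156 and 183 CPM in CD45RBlo libraries. The lowest CD45RBhi library lay well above the highest CD45RBlo library. The log2 fold change was 0.93 ± 0.0555 (adjusted p = 8.81e-06), 1.90-fold. Satb1 (ENSMUSG00000023927) spans chromosome 17 from 51736187 to 51833290 on GRCm38, on the minus strand. Of 5 other tested annotations that overlap this span, 2 were called higher and 0 lower. C230085N15Rik, an annotated transcript of the TEC class that lies inside Satb1 on the same strand (51757295 to 51761621), rose by 1.48 ± 0.109 log2 units (adjusted p = 4.94e-05), from 9.10 to 25.3 CPM. E430014B02Rik, of the same class and also inside Satb1 (51745529 to 51748684), rose by 1.44 ± 0.329 (adjusted p = 0.0256). Reads from such transcripts and from unspliced Satb1 RNA cannot be told apart in these counts, and both were named after their values were seen.

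Il7r encodes the alpha chain through which T cells sense IL-7 and survive. Its levels were 1133, 1239.8, 1139 and 1151 CPM in CD45RBhi and 734, 746, 715 and 802 CPM in CD45RBlo libraries. The groups did not overlap, and the fold change was 1.56 (log2 0.64 ± 0.0501, adjusted p = 6.46e-05). Ccr7, whose chemokine ligands draw cells into lymph nodes, was at 88.7, 201, 146 and 164 CPM in CD45RBhi against 71.6, 151, 99.7 and 121 in CD45RBlo. Replicate 2 was high and replicate 1 low in both groups, so the groups overlapped while each pair differed the same way (0.43 ± 0.061, adjusted p = 0.0024). Gpr183, an oxysterol receptor that guides cells within lymphoid tissue, was at 303, 421, 322 and 325 CPM in CD45RBhi and 217, 307, 212 and 230.1 in CD45RBlo libraries. It too was highest in replicate 2 of both groups, and rose by 0.51 ± 0.052 (adjusted p = 0.00036).

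Tcf7, which encodes the memory transcription factor TCF-1, was at 1210.3, 1403, 1334 and 1356 CPM in CD45RBhi and at 944, 1189, 975 and 1031 in CD45RBlo libraries. The groups stood apart by a small margin, and the rise was 1.28-fold (0.36 ± 0.0494, adjusted p = 0.00198). Its relative Lef1 rose by 0.35 ± 0.0511 (adjusted p = 0.00284), from 239 ± 32.0 to 303 ± 33.0 CPM. Myc, a transcription factor of growth and biosynthesis, was at 125, 181, 126 and 147 CPM in CD45RBhi and at 64.8, 123, 72.7 and 88.8 in CD45RBlo libraries. Replicate 2 was again the highest of both groups, and the rise was 0.75 ± 0.0706 (adjusted p = 0.000245). Bcl2, which protects cells from apoptosis, was at 213 ± 12.6 and 161 ± 9.63 CPM with no overlap (0.41 ± 0.057, adjusted p = 0.00206). Eya2, a transcriptional coactivator with phosphatase activity, was at 32.5 ± 2.97 and 19.4 ± 3.32 CPM (0.75 ± 0.0928, adjusted p = 0.000998), and Tnfsf8, the CD30 ligand, rose by 0.61 ± 0.095 (adjusted p = 0.00412).

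Gene lists here and below were chosen with earlier results of these data known, so their shares of called members are descriptions. The list of central memory and stem-like markers had 14 of 32 tested members higher and 1 lower in CD45RBhi, with a median log2 fold change of 0.18, where the median of all genes was -0.01. Without replicate 3 the count of higher members was 9, and without replicates 1, 2 and 4 it was 13, 15 and 12. The 1 lower member was Tox, a transcription factor also linked to exhausted T cells, at 159.9 ± 47.0 against 211 ± 49.9 CPM (-0.42 ± 0.0644, adjusted p = 0.0035). Of 23 memory-sustaining transcription factors, 5 were higher and 0 lower (3 higher without replicate 3, and Satb1 alone without the block), with a median of 0.03. Foxp1, which keeps T cells quiescent, was among them at 0.29 ± 0.0548 (adjusted p = 0.0112, 0.0779 without replicate 3). Other members gave no call: Foxo1 was at 0.16 ± 0.0598 (adjusted p = 0.151, but 0.23 and 0.0313 with offsets for GC content and length), Bach2 at 0.19 ± 0.0958 (0.282), and Id3 at -0.35 ± 0.0969 (0.0533). Id3 was called in 6 of 13 alternatives, at an adjusted p of 0.0386 with those offsets. Id3, an inhibitor of E proteins, was at 8.76 CPM in CD45RBhi replicate 1 and 14.8 in CD45RBlo replicate 1, and at 39.1 to 64.1 in the other 6 libraries.

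**Figure D2:**
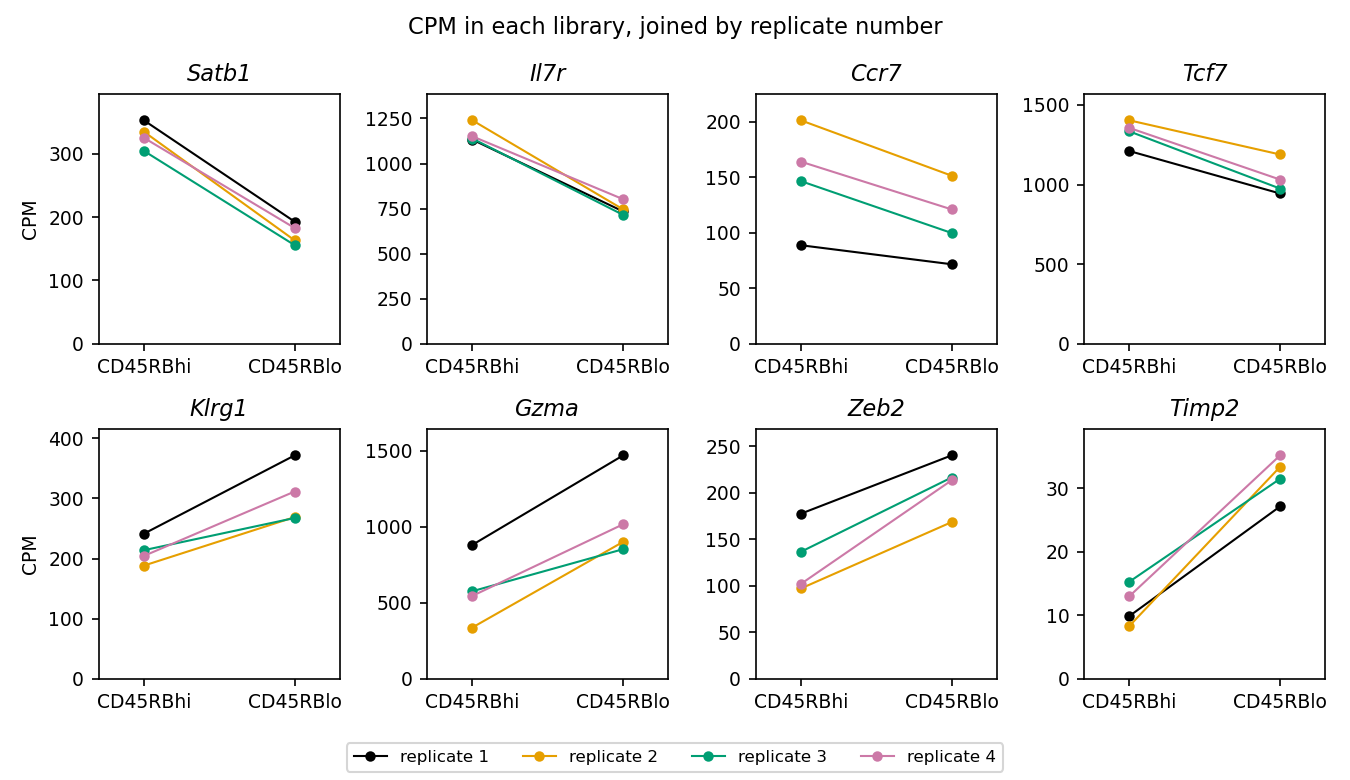
CPM of 8 genes in each library, with CD45RBhi on the left and CD45RBlo on the right of each panel and lines joining libraries of the same number. All axes start at 0. Each line falls for Satb1, Il7r, Ccr7 and Tcf7 and climbs for Klrg1, Gzma, Zeb2 and Timp2. For Ccr7 and Gzma the 4 lines start at different heights, so the groups overlap although each pair moves the same way.

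Effector differentiation markers went the other way, with 13 of 34 tested members lower and 2 higher in CD45RBhi and a median of -0.10. The count of higher members was 1 in each fit that left out a replicate. Klrg1, a lectin-like receptor of terminally differentiated effector cells, was at 241, 188, 214 and 204 CPM in CD45RBhi and at 371, 269, 267 and 311 in CD45RBlo libraries. Every CD45RBhi library was below every CD45RBlo library, and Klrg1 fell by 0.52 on the log2 scale (SE 0.0606, adjusted p = 0.000703). Cx3cr1, the fractalkine receptor of blood-borne effector memory cells, was at 750.4, 459, 545 and 505 CPM and at 966, 749, 721 and 751 CPM. Replicate 1 was the highest of both groups, and the change was -0.51 ± 0.0603 (adjusted p = 0.00074). S1pr5, a sphingosine phosphate receptor for egress into blood, changed by -0.48 ± 0.0773 (adjusted p = 0.00444). Il18rap, a chain of the IL-18 receptor, changed by -0.43 ± 0.0576 (adjusted p = 0.0017), and Fgl2, a fibrinogen-like secreted protein, by -0.59 ± 0.0684 (adjusted p = 0.000701). Itgax, the integrin chain CD11c that effector CD8 T cells also carry, was 1 of the 2 members that rose (0.42 ± 0.0661, adjusted p = 0.00412).

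Zeb2, a zinc finger repressor of terminal effector cells, was at 177, 97.0, 136 and 102 CPM in CD45RBhi and at 239.9, 168, 216 and 213 in CD45RBlo libraries. Only CD45RBhi replicate 1 reached into the CD45RBlo range, and Zeb2 changed by -0.74 ± 0.0843 (adjusted p = 0.000653). Prdm1, which encodes the repressor Blimp-1, was at 62.8 ± 16.6 and 92.3 ± 24.7 CPM (-0.55 ± 0.067, adjusted p = 0.000901). Bhlhe40, a repressor with roles in metabolism and cytokine production, was at 325, 290.4, 289 and 258 CPM and at 438, 412, 356 and 366 CPM, with no overlap (-0.43 ± 0.0543, adjusted p = 0.00105). Of 25 effector-program transcription factors 7 were lower and 2 higher, with a median of -0.20, and 4 were lower without replicate 1 or without replicate 4. The higher ones numbered 0 without replicate 1 or 3 and 1 without replicate 2 or 4. Tbx21 (T-bet) was at 822 ± 28.5 and 844 ± 56.4 CPM (-0.04 ± 0.0475, adjusted p = 0.703) and Eomes at 159.7 ± 18.4 and 153 ± 21.7 (0.06 ± 0.055, adjusted p = 0.563), so the T-box factors of effector and memory cells gave no call. Id2, which acts with them in effector cells, gave none either (0.11 ± 0.0602, adjusted p = 0.309).

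The granule genes did not all move one way. Of 24 tested, 5 were lower and 1 was higher in CD45RBhi, with a median of -0.06, and 2 were lower without replicate 1 and 3 without each of the other replicates. Gzma, a tryptase of cytotoxic granules, was at 881, 338, 576 and 545 CPM in CD45RBhi and at 1469, 900.3, 852 and 1016 CPM in CD45RBlo libraries. Replicate 1 was high in both groups, and its CD45RBhi library exceeded the lowest CD45RBlo library. Gzma changed by -0.90 ± 0.102 (adjusted p = 0.000607). Gzmm, a granzyme that cleaves after methionine and leucine, moved the opposite way, with 206, 112, 99.5 and 100.4 CPM in CD45RBhi and 145, 70.2, 60.6 and 57.1 in CD45RBlo libraries. Replicate 1 was again far above the other numbers, and each pair rose (0.68 ± 0.0663, adjusted p = 0.00025). Gzmk changed by -0.32 ± 0.0662 (adjusted p = 0.0176, 0.0823 without replicate 1). Gzmb and the pore-forming protein Prf1 did not pass, at -0.15 ± 0.0615 (adjusted p = 0.173, but -0.25 and 0.0311 with offsets for GC content and length) and -0.03 ± 0.0522 (adjusted p = 0.816). Serpinb1a, an inhibitor of serine proteases, was at 8.64 ± 1.72 and 16.5 ± 2.98 CPM with no overlap (-0.93 ± 0.126, adjusted p = 0.00188).

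The promoters of Gzmm, Gzma and Esm1 are shown as a description, and whether any factor acts on them was not tested. They were taken from the named genes with the largest changes and the T cell genes given whatever their p, where the 250 bases before the RefSeq start lay outside annotated genes of the same strand and held a match to a motif searched. Of those, up to 2 in each direction with the smallest p are printed, and 1 higher gene qualified. That each printed promoter holds a match therefore follows from the choice. Capitals mark matches to CTTTGA or CTTTGT (TCF and LEF) and to CAGGTG (the E-box bound by ZEB proteins), read on both strands. Sequences are from RefSeq on GRCm38.p6, 5′ to 3′ on the gene's strand, and end at the base before the start.
Gzmm, chr10:79688770-79689019, plus strand: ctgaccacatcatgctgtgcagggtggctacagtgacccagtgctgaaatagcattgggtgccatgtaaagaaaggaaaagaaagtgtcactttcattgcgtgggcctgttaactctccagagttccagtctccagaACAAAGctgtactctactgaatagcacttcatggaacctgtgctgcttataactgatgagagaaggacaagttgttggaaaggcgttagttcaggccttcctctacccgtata
Gzma, chr13:113100982-113101231, minus strand: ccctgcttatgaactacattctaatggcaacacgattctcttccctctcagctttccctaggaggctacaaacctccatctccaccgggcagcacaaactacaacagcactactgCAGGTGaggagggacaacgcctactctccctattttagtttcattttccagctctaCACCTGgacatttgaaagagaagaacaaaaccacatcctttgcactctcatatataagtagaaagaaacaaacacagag
Esm1, chr13:113209409-113209658, plus strand: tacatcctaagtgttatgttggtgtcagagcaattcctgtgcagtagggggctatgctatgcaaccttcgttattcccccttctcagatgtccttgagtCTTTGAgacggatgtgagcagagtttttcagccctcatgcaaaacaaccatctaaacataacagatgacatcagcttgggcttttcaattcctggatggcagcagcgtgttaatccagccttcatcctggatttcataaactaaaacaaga

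Gzmm held 1 TCF and LEF match, with its first base at -113 from the start, Gzma 2 E-box matches at -135 and -79, and Esm1 1 TCF and LEF match at -151. Over windows of the same length, a TCF or LEF match was found in 24.4% of 225 promoters of higher genes, 18.2% of 297 of lower genes and 20.8% of 8610 of all tested genes. The E-box was found in 16.4%, 16.5% and 14.7% of them. A T-box motif (TCACACC) was found in 2.67%, 5.05% and 2.81%, and a forkhead motif (TGTTTAC) in 1.78%, 2.69% and 2.04%. T-box and E-box matches can overlap. A match describes letters in this window and is not a binding site, and promoters were matched by symbol to the most upstream RefSeq start.

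Among genes with a mean of at least 10 CPM, those that fell most were of mixed function. Timp2, an inhibitor of matrix metalloproteinases, was at 9.88, 8.32, 15.3 and 13.0 CPM in CD45RBhi and at 27.1, 33.4, 31.5 and 35.2 in CD45RBlo libraries. All CD45RBhi libraries lay far below all CD45RBlo libraries, a 2.79-fold difference (-1.48 ± 0.137, adjusted p = 0.000245). The kinase Matk phosphorylates Src-family kinases at their inhibitory site. It was at 12.7, 11.4, 11.9 and 8.13 CPM in CD45RBhi and, in CD45RBlo, at 33.9 CPM in replicate 1 and 22.9 to 25.4 CPM in the other 3. Matk did not overlap between the groups and changed by -1.25 ± 0.118 (adjusted p = 0.000245). Plakoglobin, a protein of cell junctions, is encoded by Jup, whose level was 11.9 ± 1.03 and 25.1 ± 1.31 CPM (-1.08 ± 0.104, adjusted p = 0.000245), with a small spread in both groups. Cpne7, a calcium-dependent membrane-binding copine, changed by -1.18 ± 0.124 (adjusted p = 0.00043). Esm1, a secreted proteoglycan best known from endothelium, was at 27.6, 11.0, 15.7 and 12.4 CPM and at 45.5, 19.4, 33.4 and 29.1 CPM (-0.96 ± 0.107, adjusted p = 0.000607). Its replicate 1 was highest in both groups. Oplah, an enzyme of glutathione turnover, changed by -0.84 ± 0.162 (adjusted p = 0.0133).

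Some large changes were uneven across pairs or were not called without a replicate. Cotl1, a coactosin-like protein that binds actin, was at 94.3, 239, 272 and 97.8 CPM in CD45RBhi and at 58.3, 159, 45.9 and 44.4 in CD45RBlo libraries. Replicate 2 was high in both groups and replicate 3 in CD45RBhi alone. Cotl1 rose by 1.22 ± 0.237 (adjusted p = 0.0133) and by 0.80 without replicate 3 (adjusted p = 0.00855). It was called in each fit that left out a replicate, and DESeq2 did not call it. Sun2, a protein of the nuclear envelope, was at 84.9, 44.4, 46.1 and 30.3 CPM and at 102, 48.3, 132 and 82.9 CPM, with pairs 3 and 4 far apart and pairs 1 and 2 close. It changed by -0.83 ± 0.197 (adjusted p = 0.0302, 0.194 without replicate 3, 0.121 without replicate 4 and 0.0582 with offsets for GC content and length), and DESeq2 did not call it. Plekha6, a pleckstrin homology protein, was at 21.4 and 21.6 CPM in pair 1 and at 4.90 to 8.34 against 12.1 to 17.5 CPM in the other pairs (-0.96 ± 0.215, adjusted p = 0.0232, 0.126 without replicate 3 and 0.0967 without replicate 4). Lclat1, a lysocardiolipin acyltransferase, changed by -0.82 ± 0.155 (adjusted p = 0.0119, 0.0865 without replicate 3).

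**Figure D3:**
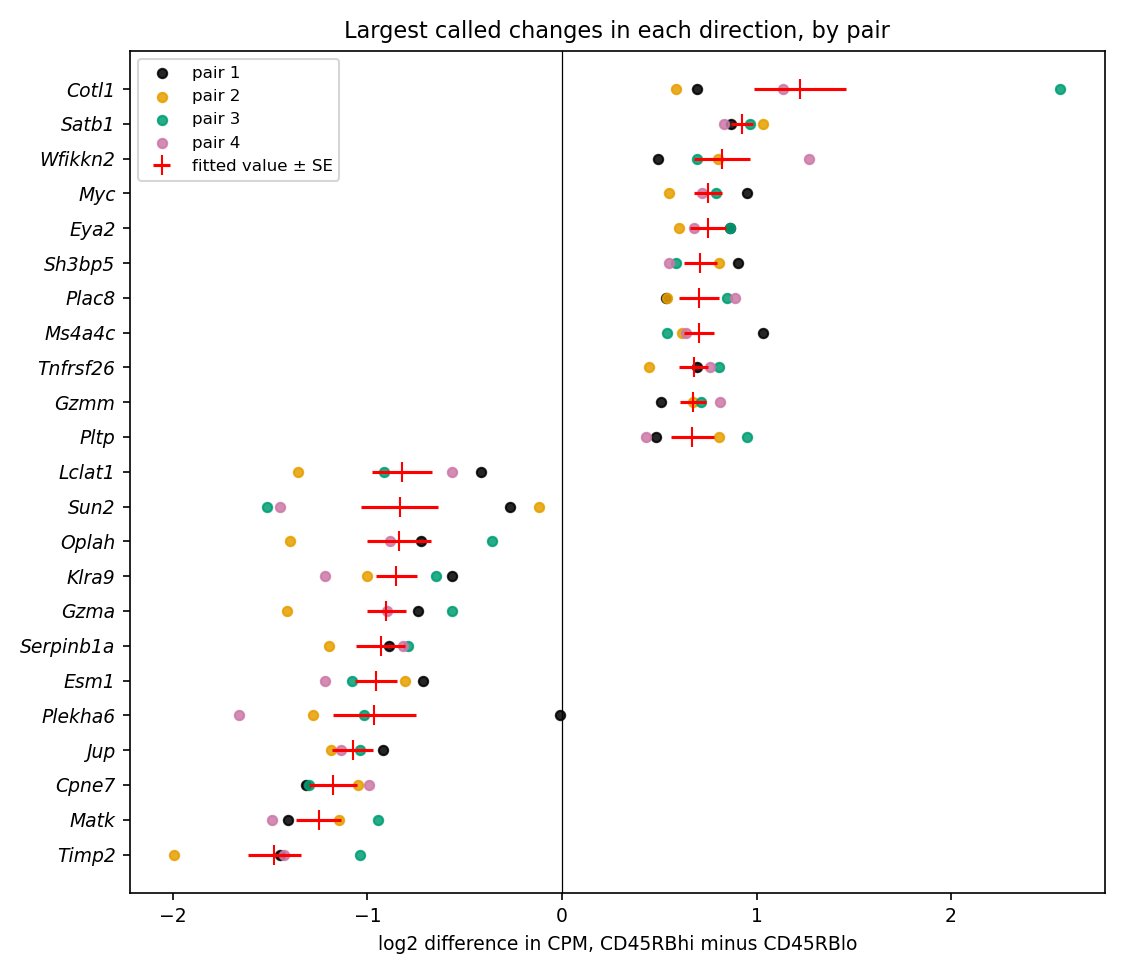
Log2 difference in CPM (CD45RBhi minus CD45RBlo) in each of the 4 pairs for genes with the largest called changes, up to 12 in each direction, with the fitted value ± SE in red. The rule asked for a mean of at least 10 CPM and the same direction in 4 of 4 pairs. Satb1 and Jup have 4 close points, whereas Cotl1, Sun2 and Plekha6 are spread widely, and pair 1 of Plekha6 lies at 0.

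Inhibitory receptors had 6 of 18 tested members lower and 2 higher in CD45RBhi, with a median of -0.18. Without replicate 3, 3 were lower, and in each fit that left out a replicate 1 was higher. Pdcd1, which encodes PD-1, was at 70.6, 132, 126 and 114 CPM in CD45RBhi and at 102, 186, 181 and 156 in CD45RBlo libraries. Replicate 1 was low in both groups, and Pdcd1 changed by -0.50 ± 0.0565 (adjusted p = 0.000607). Lag3, a receptor for MHC class II, was at 5.62 ± 1.42 and 10.7 ± 1.15 CPM without overlap (-0.96 ± 0.16, adjusted p = 0.00605). Cd47, the ligand that restrains phagocytes and sits in this list, rose from 720.2 ± 70.0 to 923 ± 67.4 CPM (0.36 ± 0.0504, adjusted p = 0.0021). Of 17 lectin-like receptors of the NK-cell complex, 4 were lower and 0 higher, with a median of -0.30. Klra9, a Ly49 receptor, changed by -0.85 ± 0.105 (adjusted p = 0.00096) and Klre1 by -0.67 ± 0.106 (adjusted p = 0.0043). Klra genes are near copies of each other, so the counting could split their reads. Costimulatory and death receptors had 4 of 23 members higher and 0 lower, led by Cd7, an immunoglobulin-family receptor of T cells (0.48 ± 0.0635, adjusted p = 0.00167). Their count was 2 without replicate 1 and 1 without replicate 3 or 4.

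Chemokine receptors, adhesion ligands and egress genes moved both ways, with 6 of 25 higher and 5 lower and a median of 0.02, and 3 were higher without replicate 3 or 4. Without replicate 2, 5 were higher and 6 lower. The higher members included Ccr7 and Gpr183, described above, and Cxcr3, the receptor for interferon-induced chemokines (0.25 ± 0.0458, adjusted p = 0.0106, 0.0511 without replicate 3 and 0.0645 without replicate 4). The lower ones included Cx3cr1, S1pr5 and Ccr6. Ccr6, the receptor for CCL20, was at 0.342, 2.73, 1.83 and 0.609 CPM in CD45RBhi and at 2.77, 6.95, 10.3 and 5.00 in CD45RBlo libraries. Both groups were low and did not overlap (-2.31 ± 0.292, adjusted p = 0.00115). Cytokine receptor chains had 3 of 26 members higher (1 without replicate 3 or 4) and 3 lower, among them Il7r and, on the lower side, Il10ra (-0.36 ± 0.0589, adjusted p = 0.00481). Of 15 cytokines and chemokines, 2 were higher (1 without replicate 3) and 0 lower. Of 21 integrin chains and adhesion genes, 2 were higher and 1 was lower, with 1 higher in each fit that left out a replicate and none lower without replicate 2, 3 or 4. Ifng gave no call, at 19.3 ± 1.67 and 20.7 ± 2.38 CPM (-0.10 ± 0.0968, adjusted p = 0.604).

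In antigen receptor signalling 4 of 50 tested members were lower and 1 was higher, with a median of -0.02, which is close to that of all genes. The count of lower members was 2 without replicate 3 or 4, and with offsets for GC content and length 5 were higher and 3 lower, so the balance turned. Beside Matk, the lower ones included Plcg1, the phospholipase downstream of LAT (-0.36 ± 0.059, adjusted p = 0.0056). The higher one was Sh3bp5, an adaptor protein that binds the kinase Btk, at 57.9, 56.3, 56.5 and 53.4 CPM in CD45RBhi and 30.9, 32.1, 37.6 and 36.5 in CD45RBlo libraries. The CD45RBhi libraries lay close together and above all CD45RBlo libraries (0.71 ± 0.0828, adjusted p = 0.000701). Of 18 regulators of MAPK feedback and G protein signalling 3 were lower, 1 without replicate 1 and none without replicate 3. Dusp6, a phosphatase of ERK, was at 11.3 ± 1.57 and 17.4 ± 3.21 CPM (-0.62 ± 0.121, adjusted p = 0.0139, 0.0614 without replicate 1 and 0.0589 without replicate 3). A list of AP-1, EGR, NR4A and other early response genes had 1 of 25 tested members higher and 1 lower, neither from those named families. Myc was higher. Tnfaip3, an inhibitor of NF-kappa B, was lower (-0.33 ± 0.0749, adjusted p = 0.024, and 0.0527, 0.107 and 0.113 without replicates 2, 3 and 4). Of 27 chromatin and DNA methylation enzymes 2 were lower (3 without replicate 2, 1 without replicate 1 or 4 and none without replicate 3). A list titled BCL2 family and caspases had 4 of 30 tested members higher and 1 lower. The higher ones were Bcl2, Bcl2l1 and the kinases Pim1 and Pim2, and the kinases belong to neither group. Those 4 became 1 without replicate 3 and 2 without replicate 4, and the lower one was not called without replicate 3 or 4.

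Of 85 tested genes of cytosolic ribosomal proteins 62 were called higher and 0 lower, 83 had a positive log2 fold change, and the median was 0.34. Rps7 was at 224, 206, 203 and 240.4 CPM in CD45RBhi and at 157, 155, 145 and 165 in CD45RBlo libraries. The groups did not overlap (0.49 ± 0.0546, adjusted p = 0.000607). Rpl13 rose from 749.8 ± 25.4 to 990.1 ± 69.4 CPM (0.40 ± 0.0515, adjusted p = 0.00134). The list's median was 0.24, 0.21, 0.31 and 0.54 in pairs 1 to 4, so pair 4 was the highest and no pair was negative. The count was 39, 61, 21 and 21 without replicates 1, 2, 3 and 4, 55 with offsets for GC content and length, 58 with library size as the only scaling, and 0 without the block. Ribosomal protein genes have many processed pseudogenes, and the counting could split their reads.

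A list of translation factors and related genes had 10 of 47 members higher and 0 lower, with a median of 0.13, and 2, 10, 2 and 3 without replicates 1, 2, 3 and 4. The higher ones included Naca and Tpt1, which are not initiation or elongation factors, and Eef2k, a kinase that inhibits elongation factor 2. Eef2k rose by 0.75 (adjusted p = 0.0198, and 0.0698, 0.12 and 0.0937 without replicates 1, 3 and 4). Eef1g, a subunit of elongation factor 1, was at 285 ± 21.4 and 223 ± 14.6 CPM (0.36 ± 0.0558, adjusted p = 0.00412). Ribosome biogenesis genes were positive for 47 of 52 members with a median of 0.11, but 2 were called, 1 and 3 without replicates 1 and 2 and none without replicate 3 or 4. Mitochondrial ribosomal proteins had 2 of 76 higher (2.63%) and 1 lower (1.32%), where the shares over all genes tested were 2.52% and 3.08%. None of them was called without replicate 1, 3 or 4. Nuclear-encoded subunits of oxidative phosphorylation were positive for 77 of 78 with a median of 0.15, and 4 were called, 8 without replicate 2, 1 without replicate 1 and none without replicate 3 or 4. With offsets for GC content and length 2 were called, and Ndufc2, Cox5a and Ndufb11 were not (adjusted p = 0.106, 0.119 and 0.113). Chaperone and proteasome genes had a median of 0.10 with 49 of 56 positive and none called, where DESeq2 called 5 higher. These shares of positive values compare with 48.9% over all genes tested. For cholesterol and fatty acid synthesis no member of 32 was called (median 0.04, 1 by DESeq2), and for fatty acid oxidation 1 of 24 was higher (none without replicate 3 or 4). None of 13 mitochondrially encoded genes was called, and DESeq2 called 1 higher. Glycolysis had 1 of 26 higher and 1 lower, the latter lost in each fit that left out a replicate. The higher one was Pdk1, a kinase that restrains pyruvate oxidation (0.41 ± 0.0645, adjusted p = 0.00422).

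Cell cycle and replication genes had 11 of 54 members higher and 0 lower, 47 positive values and a median of 0.16. Called members such as Cdc6 and Nusap1 were at low levels, whereas Rrm2 averaged at least 10 CPM. Rrm2 rose by 0.56 (adjusted p = 0.0176, 0.0961 without replicate 3 and 0.0965 without replicate 4). Cdc6, a replication licensing factor, was at 2.35, 3.11, 5.55 and 8.99 CPM in CD45RBhi and at 1.83, 0.284, 0.725 and 1.52 in CD45RBlo libraries. It was low in every library and did not overlap between the groups (2.21 ± 0.407, adjusted p = 0.01, 0.0865 without replicate 3 and 0.0584 without replicate 4). Nusap1, a spindle protein, was at 4.07 ± 1.72 and 1.65 ± 0.95 CPM (1.35 ± 0.239, adjusted p = 0.0085, 0.0647 without replicate 3). The count of higher members was 7, 9, 1 and 1 without replicates 1, 2, 3 and 4, and 2 when only genes averaging 10 CPM or more were tested.

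**Figure D4:**
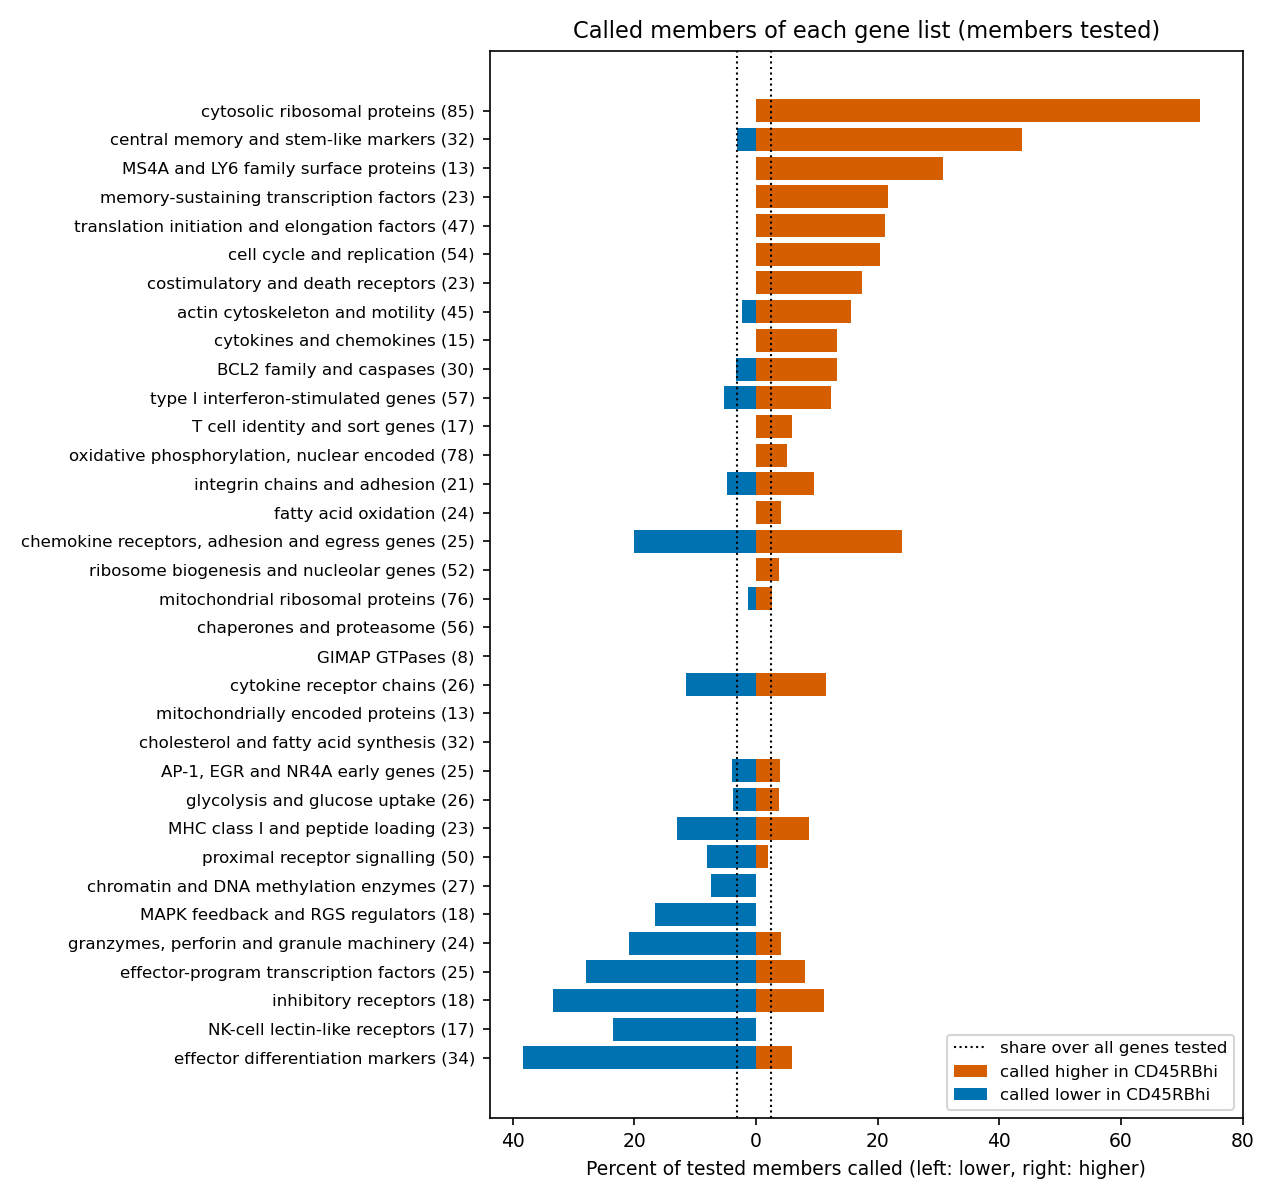
Percent of the tested members that were called higher (orange, right) or lower (blue, left) in CD45RBhi, for each gene list except the marker lists of other cell types, with the number of members tested in parentheses. Dotted lines mark the shares over all genes tested, 2.52% higher and 3.08% lower. The lists were chosen with earlier results of these data known. Cytosolic ribosomal proteins (62 of 85) and central memory markers (14 of 32) reach farthest to the right among the lists shown, and effector differentiation markers (13 of 34) and inhibitory receptors (6 of 18) farthest to the left.

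Several surface proteins of the MS4A and LY6 families were higher. Of 13 tested, 4 were called higher and 0 lower, 12 were positive and the median was 0.26. Ms4a4c, a tetraspan membrane protein, was at 152, 168, 151 and 156 CPM in CD45RBhi and at 74.3, 109, 104 and 101 in CD45RBlo libraries. Its groups did not overlap, and it rose by 0.70 ± 0.0781 (adjusted p = 0.000607). Ly6e, a GPI-anchored protein induced by interferon, rose from 1106 ± 57.8 to 1566 ± 94.6 CPM (0.50 ± 0.0483, adjusted p = 0.000245), and Ly6a (Sca-1) by 0.42 ± 0.0548 (adjusted p = 0.00144). Ly6 genes lie in a cluster of similar copies, so their reads could be split. Type I interferon-stimulated genes as a list moved both ways, with 7 of 57 higher and 3 lower and a median of 0.03. The higher ones numbered 3 without replicate 3, and the lower ones 1 without replicate 1, 3 or 4. Usp18, which dampens interferon signalling, rose by 0.58 ± 0.0713 (adjusted p = 0.00096). Stat2, a transducer of it, was at 75.5 ± 2.20 and 97.0 ± 1.42 CPM with no overlap (-0.36 ± 0.0608, adjusted p = 0.00617). Of 23 genes of MHC class I and peptide loading 2 were higher and 3 lower, and no higher one was called in any fit that left out a replicate. The lower ones numbered 0, 2, 0 and 1 without replicates 1, 2, 3 and 4. None of 8 GIMAP GTPases was called, while DESeq2 called 1 higher, and 1 was lower without replicate 2, with no filter and with offsets for GC content and length.

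Of 45 actin and motility genes 7 were higher and 1 was lower, with a median of 0.08, and 4 were higher without replicate 2 and 3 without replicate 3 or 4. Pdlim1, a cytoskeletal adaptor, was at 185, 221, 188 and 208 CPM in CD45RBhi and at 138, 157, 123 and 134 in CD45RBlo libraries, again without overlap (0.54 ± 0.0586, adjusted p = 0.000565). Tmsb4x, the actin-sequestering thymosin beta 4, rose from 4290.2 ± 420 to 5316 ± 239 CPM (0.31 ± 0.0482, adjusted p = 0.00381). Other genes with large rises were Tnfrsf26, a receptor of the tumour necrosis factor family (0.68 ± 0.0748, adjusted p = 0.000607), Plac8 (0.70 ± 0.103, 0.00284) and Wfikkn2, a secreted protease inhibitor domain protein (0.82 ± 0.146, 0.00834). Pltp, a phospholipid transfer protein, rose by 0.67 ± 0.11 (adjusted p = 0.00536, 0.0519 without replicate 3).

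Some markers of other spleen cells were near 0, others had many counts in every library, and some list members moved with the groups. Of the B cell list 12 members were tested, 2 higher (Cd79b and Pou2af1) and 1 lower (Cd22). The list's summed level was 235 to 518 CPM in CD45RBhi and 218 to 462 in CD45RBlo libraries. Pax5 had 0 counts in all 8 libraries, and Ms4a1 had 37 counts in CD45RBhi replicate 1 and 0 to 3 elsewhere. Ighm, the immunoglobulin mu constant gene, made up most of the sum, with 2947 to 11060 counts per library, and was not called (adjusted p = 0.097). No B cell marker was called without replicate 1 or 3, and no higher one without replicate 4. Of 12 NK cell markers tested 2 were lower, Gzma and Klre1, which memory CD8 T cells also express. The summed level of that list was 4374 to 4961 CPM in CD45RBhi and 4924 to 5991 in CD45RBlo libraries, and Ncr1, which marks NK cells, had 0 to 2 counts. Among 3 erythroid and platelet markers tested, 1, Car2, was lower (-2.07 ± 0.262, adjusted p = 0.00115). That list summed to 5.12 to 12.8 CPM in CD45RBhi and 11.8 to 37.3 in CD45RBlo libraries. Globin and Alas2 counts summed to 437 in CD45RBlo replicate 1 and to 5 to 31 in the others, with Car1 and Ppbp at 0. Of 7 gamma-delta, MAIT and NKT markers 3, Tcrg-C4, Maf and Cd1d1, were lower (list sums of 84.6 to 123 CPM against 106 to 150.4). Of 7 dendritic cell markers 1, Irf8, was higher (list sums of 113 to 122 CPM against 98.8 to 108). Irf8 rose by 0.45 ± 0.0922 (adjusted p = 0.0174, 0.0769 without replicate 1 and 0.1 without replicate 3). Siglech was at 0, and Bst2 had 1018 to 1739 counts per library. The gamma-delta, MAIT and NKT count was 0 without replicate 1, 3 or 4. Macrophage and neutrophil markers had none of 7 called (list sums of 34.0 to 48.0 CPM against 35.5 to 44.3). S100a9 was at 0, and Cd68 had 494 to 891 counts per library. Of 8 CD4 helper and regulatory markers 1, Izumo1r, was lower, in no fit that left out a replicate. The sums were 101 to 117 CPM against 103 to 112, with Il17a at 0 and Icos at 1237 to 1946 counts per library. Of 5 plasma cell markers 1, Prdm1, was lower, with sums of 209.9 to 258 CPM against 239 to 289. Tnfrsf17 was at 0, Jchain had 6 to 48 counts per library and Xbp1 2708 to 4126. The 1 stromal and endothelial marker tested, Pecam1, was higher (75.6 to 109.8 CPM against 49.6 to 102), though not without replicate 1, 3 or 4, and Col3a1 and Dcn were at 0. The part of these cells in the results was not tested.

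T cell receptor segments were read as a second check of the numbers, and the segments named here were chosen after their values were seen. Of all Trbv counts in a library, Trbv17 took 5.51%, 24.2%, 37.1% and 12.2% in CD45RBhi and 3.72%, 21.2%, 34.4% and 7.27% in CD45RBlo libraries. Its share differed far more between numbers than between groups, and it was also called higher in CD45RBhi (log2 fold change 0.51, adjusted p = 0.0164, 0.0666 without replicate 1). Trbv14 took 13.4% and 24.6% in the replicate 1 libraries and 0.394% to 5.61% in the others. The overlap of Trbv usage, the sum over segments of the smaller share, was 77.7%, 88.3%, 93.9% and 85.6% for libraries of the same number. It was 54.3% to 80.8% for CD45RBhi and CD45RBlo libraries of different numbers and 57.5% to 80.9% within a group. Among called segments, Trbv16 took 4.94%, 5.45%, 0.921% and 6.45% in CD45RBhi and 2.86%, 3.37%, 0.772% and 2.93% in CD45RBlo libraries. It was higher in 4 of 4 pairs (0.89 ± 0.133, adjusted p = 0.00332). Trbv20 took 9.02%, 12.1%, 1.99% and 7.80% against 18.3%, 21.3%, 1.73% and 12.6%, lower in CD45RBhi in 3 of 4 pairs (-0.51 ± 0.137, adjusted p = 0.0488, and 0.208, 0.106 and 0.115 without replicates 1, 2 and 4). Trbv13-3 (log2 fold change 0.32, adjusted p = 0.0231) and Trbv31 (0.71, 0.0223) were called higher too. Neither was called without replicate 1, 3 or 4.

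**Figure D5:**
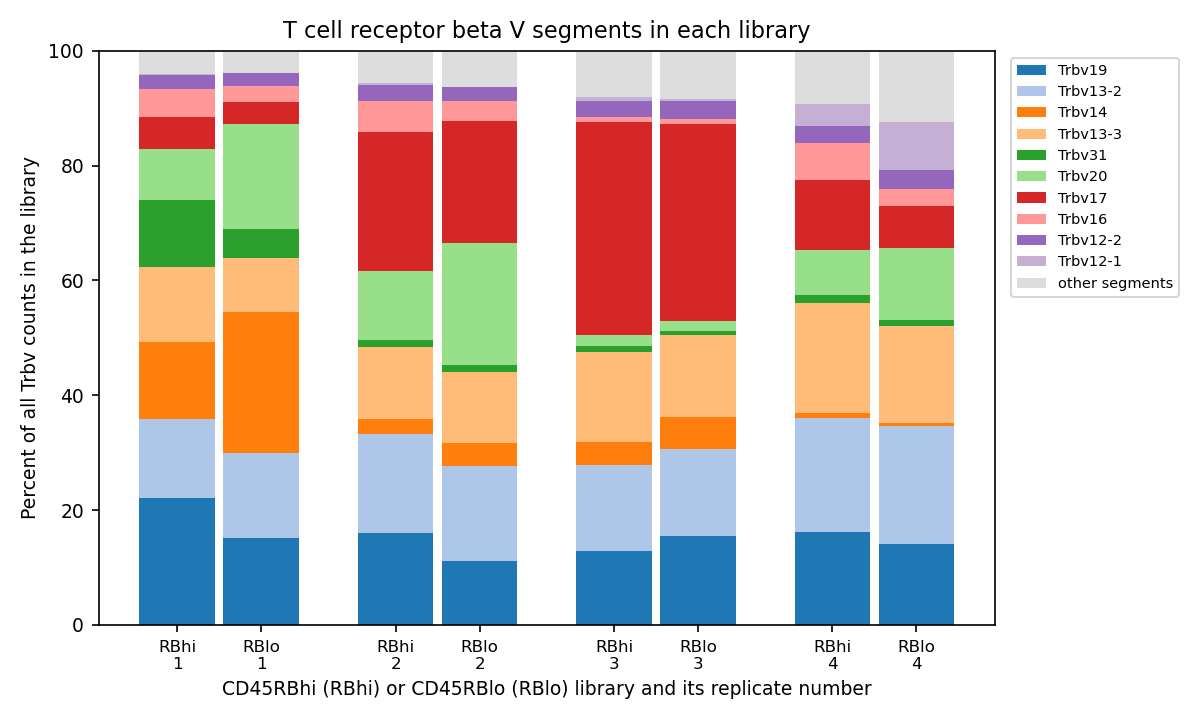
Share of all Trbv counts that each of 10 V segments took in each library, with the libraries of a number side by side (RBhi for CD45RBhi, RBlo for CD45RBlo). Bars of the same number resemble each other, least so for replicate 1 (overlap 77.7%). Across libraries, Trbv17 has its largest shares in the replicate 3 libraries (37.1% and 34.4%) and Trbv14 in the replicate 1 libraries (13.4% and 24.6%). Trbv19 is the widest segment of CD45RBhi replicate 1 (22.1%).

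Calls were also made from 3 pairs and read in the pair left out. Of 344, 667, 167 and 300 genes called without replicates 1, 2, 3 and 4, the left-out pair had the same sign for 92.2%, 87.3%, 97.6% and 90.7%, where over all genes tested the shares were 61.6%, 61.7%, 65.6% and 65.0%. The median log2 difference in the left-out pair ran from 0.24 to 0.51 for genes called higher and from -0.47 to -0.31 for genes called lower. Of the 707 genes, 131 were called in each of the 4 fits of 3 pairs, 62 of them higher and 69 lower, and 128 in none. Among the genes named by the rule, 59 of 117 called ones passed in each of these fits, among them Satb1, Il7r, Tcf7, Myc, Gzmm, Klrg1, Gzma, Zeb2, Pdcd1, Timp2, Matk and Jup.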

How the data were processed

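The authors deposited 1 table of raw read counts per gene (52636 genes, 6417 without a symbol). Per the submitters' processing notes, the tools included featureCounts, SAMtools and DESeq2, with build mm10 (GRCm38). For the aligner, the annotation and the strand setting, nothing is given in the sources used here, so reads of overlapping and antisense genes cannot be told apart. The labels name the Qiagen AllPrep kit and Illumina libraries.

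Libraries were grouped by their labels. The counts of the 8 memory libraries were fitted with edgeR 4.0.16 in R 4.3.3 (TMM scaling, filterByExpr with a minimum count of 10, quasi-likelihood F test, two-sided, Benjamini-Hochberg adjustment over 12637 genes, threshold 0.05), with the replicate number as a block. Biological variation was 9.88% with the block. CPM use TMM-scaled library sizes, and log2 values within pairs a prior count of 2. Gene positions are from GENCODE for GRCm38, and promoters from RefSeq. The fit was also run on simulated counts with pair effects drawn independently for each gene, which says nothing about the calls in these data.

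The pairing was checked on the data, since no label says what a number marks. Deviations from the group means correlated across genes at 0.215 to 0.540 for the 4 pairs of the same number and at -0.405 to 0.0380 for the 12 of different numbers, and at 0.150 to 0.520 and at most 0.0682 without receptor and immunoglobulin segments. The 12 pairs of libraries within a group differed by 10.8 to 93.3 times sampling noise (chi-square per degree of freedom), so none was counted as a duplicate.

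The members and gene lists were chosen with earlier results of these data known. Genes are named by a rule: up to 12 in each direction with the largest called change, the same direction in 4 of 4 pairs and a mean of at least 10 CPM (no clone names, pseudogenes, receptor segments or ribosomal proteins), up to 4 called members of each list with the smallest p, and a set of T cell genes whatever their p. Alternatives were each replicate left out, no block, DESeq2 1.42.0, limma 3.58.1 (voom), other scalings and filters, a test against 1.5-fold, and offsets for GC content and length (mgcv 1.9.3). The naive libraries were not used. Some genes that the rule names are not reported here.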

Additional observations from a re-analysis of the deposited data

Results flagged for a closer look

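In each group of 4 libraries, the highest or lowest library was set against the others by its gap to the nearest one, divided by the group's range (Dixon's test, 95% limit). Of 284 groups of values examined, 22 passed the limit. Chance flags about 1 in 20 groups. In CD45RBhi replicate 1, Gzmm (206 CPM) and Cd47 (1024 CPM) lay above and Tox (89.6 CPM) and Ptpn11 (82.3 CPM) below the other 3 libraries. In CD45RBhi replicate 2, Il7r (1239.8 CPM) and Pltp (33.5 CPM) lay above and Gzmk (181 CPM) below. Car2 was low in CD45RBhi replicate 3 (0.579 CPM), and Cpne7 in CD45RBhi replicate 4 (6.55 CPM).

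In CD45RBlo replicate 1, Gzmm (145 CPM) and Cx3cr1 (966 CPM) lay above the others. In CD45RBlo replicate 2, Cotl1 (159 CPM) and Ldhb (24.2 CPM) lay above and Itga4 (424 CPM) below. In CD45RBlo replicate 3, H2-Q4 (29.9 CPM), Tcrg-C4 (6.32 CPM) and Ifng (24.3 CPM) lay above, and Rpl13 (712 CPM), Eef1g (200.8 CPM) and Pltp (14.1 CPM) below. In CD45RBlo replicate 4, Hnrnpll (83.9 CPM) lay above and the summed level of macrophage, monocyte and neutrophil markers (35.5 CPM) below. Gzmm stood apart in replicate 1 of both groups, and Pltp in a different replicate of each.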

How the results depend on the processing

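Leaving out 1 replicate gave 167 to 667 called genes, 76 to 305 higher and 91 to 362 lower. The lowest counts came without replicate 3, and fits without replicates 1 and 4 gave 344 and 300 genes, with fewer samples by construction. Without the replicate block 4 genes were called, 2 higher and 2 lower, and 946 had an unadjusted p under 0.05, against 2720 with the block. With no filter on low counts 1296 genes were called, 482 higher and 814 lower, of 22744 tested. Against a 1.5-fold change 7 genes were called, 3 higher and 4 lower. DESeq2 called 916 genes, 685 of them among the 707, and gave 1225 genes no adjusted p. Limma-voom called 713, DESeq2 size factors in edgeR 698, library size alone 740, and a mean of 10 CPM or more 794. Offsets for GC content and length called 714 genes, of which 62.7% were higher, against 45.0% in the paired fit, and the cause was not tested. With them, 17 cell cycle and 12 actin genes were higher, against 11 and 7. None of the 117 named genes called changed sign in these alternatives. Of these genes, 58 were lost in at least 1 of the fits without a replicate: 35, 14, 56 and 43 without replicates 1, 2, 3 and 4. With 4 pairs the smallest two-sided exact p of 1 gene by sign changes is 0.125, so single-gene p-values rest on the spread shared across genes. Genes near 3 counts per library (0.128 to 0.166 CPM) are limited by depth.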
